A study of Rattus norvegicus with 10 samples.

Results

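The genes described here encode the peroxins that build peroxisomes, the enzymes that work inside peroxisomes and the transporters of their membrane. They were taken by gene symbol, as a list of 36 genes among the 13832 genes named on a whole rat genome array: 13 peroxins (Pex genes) and 23 enzymes and transporters. Each of the 36 had a probe, and 31 were measured well enough to be tested. Their mRNA was compared between the livers of 5 male Wistar rats given diethylnitrosamine and thioacetamide (DEN/TAA) and those of 5 control male Wistar rats, given vehicle alone, with 1 Cy3 array per rat. Diethylnitrosamine alkylates DNA and causes liver cancer in rodents, and thioacetamide injures hepatocytes after they convert it and leads to fibrosis. Diethylnitrosamine was injected once into the peritoneum at 200 mg/kg, when the DEN/TAA rats were 6 weeks old, and from 2 weeks later they were given 200 mg/kg thioacetamide by 2 intraperitoneal injections a week, in cycles of 3 weeks with and 1 week without injections. The labels give 23 weeks both as the length of the treatment and as the age of every rat, DEN/TAA and control, and a treatment of that length begun at 6 weeks of age would outlast that age, so the duration is not settled. They name the tissue as liver and do not say whether the DEN/TAA pieces held tumour, scar or both.

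Peroxisomes are small organelles bounded by a single membrane, abundant in hepatocytes. Pex3, Pex16 and Pex19 place proteins in that membrane, and Pex5 and Pex7 are receptors that carry newly made enzymes from the cytosol to a docking complex that contains Pex13 and Pex14. Pex2 and Pex10 belong to a ubiquitin ligase that, with the ATPase Pex6 and its anchor Pex26, returns the receptors to the cytosol, and the Pex11 proteins act when peroxisomes elongate and divide. The imported enzymes shorten very long-chain and branched fatty acids, finish the side chain of bile acids, oxidise amino acids, hydroxy acids and urate, and remove the hydrogen peroxide these reactions make. In rat liver many genes of peroxisomal fatty acid oxidation are induced by PPAR-alpha, a nuclear receptor activated by fatty acids and fibrates.

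The mRNAs of most peroxisomal enzymes were lower in DEN/TAA livers, while most peroxins did not pass the test. Of the 31 members tested, 21 were lower in DEN/TAA (limma, Benjamini-Hochberg adjusted p under 0.05 over all 6855 genes tested), and 0 were higher, also at an unadjusted p under 0.05. Over all genes tested 55.5% were called, 16.3% as lower and 39.2% as higher. The 21 lower members were 17 of the 20 enzymes and transporters tested and 4 of the 11 peroxins tested. A value here is the log2 signal of a probe minus its array's 75th percentile, and a difference is the DEN/TAA mean minus the control mean. The median difference was -1.56 for the enzymes and transporters, -0.39 for the peroxins and 0.33 for all genes tested. The peroxin median was -0.20 without DEN/TAA replicate 2 and -0.21 without control replicate 4. Of the 20 enzymes and transporters, 15 had a difference below that of the lowest peroxin. The 2 groups of rats did not overlap for 13 of these 20 genes and for 3 of the 11 peroxins, where 39.5% of all genes tested did not overlap in either direction. Within each of the 3 slides that held the arrays, all 21 lower members differed in the same direction. The slides hold the same arrays that gave the calls. A gene was tested when well above background on at least 5 arrays. Of the genes tested, 683 were so on 0 control arrays and 2 on 0 DEN/TAA arrays. Without this filter the median difference was -1.41 for the enzymes and transporters, -0.47 for the peroxins and -0.50 for all genes. The peroxins then no longer lay below all genes. Of the 26 members well above background on all 10 arrays 20 were lower, where 944 of all 3568 such genes were lower.

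**Figure D1:**
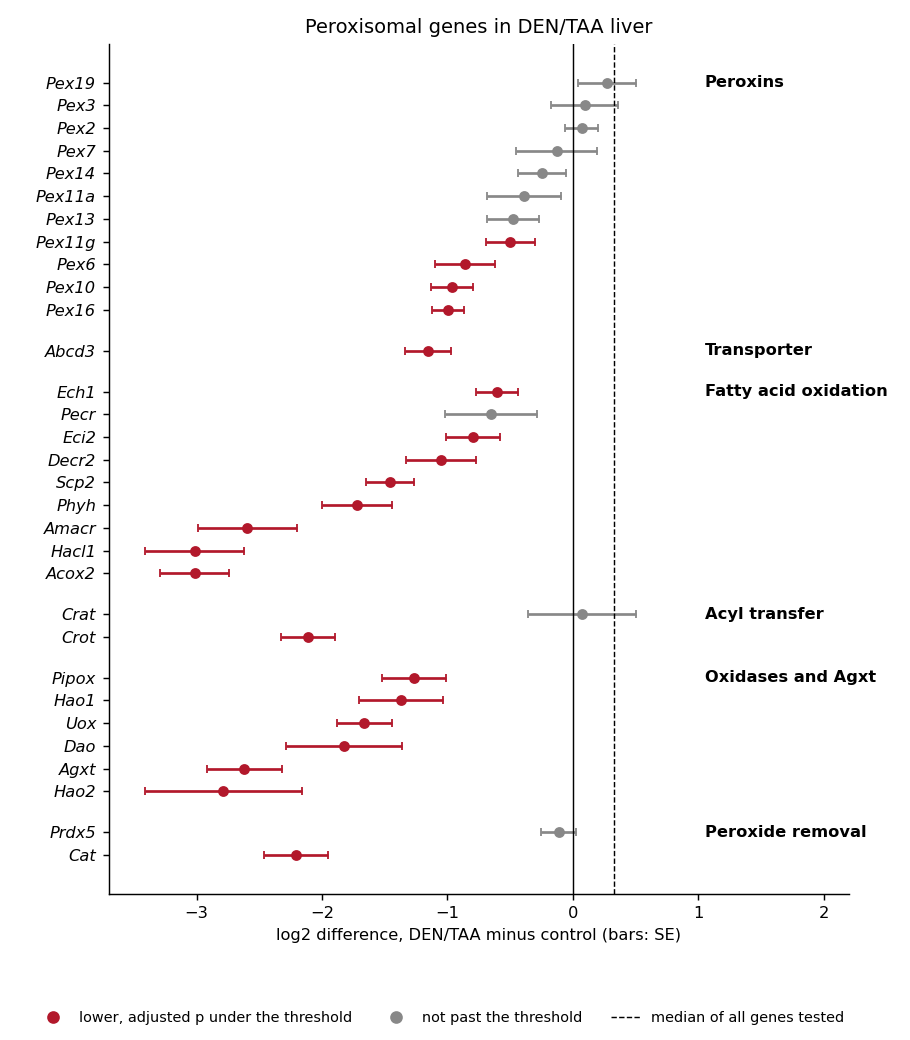
Log2 difference (DEN/TAA minus control, bars SE) of the 31 members tested, grouped by role, with the median of all genes tested (0.33) as a dashed line. The peroxins lie between -0.999 and 0.27, and most enzymes lie further left, down to -3.02 for Acox2 and Hacl1.

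Brightness differed between the groups of arrays. In DEN/TAA 40.6% ± 4.42 of spots were well above background, and in control 25.5% ± 6.21 (SD, n = 5 each). The log2 signal of 5 probes for spike-in RNA, added alike to every sample, was 13.88 ± 0.18 in DEN/TAA and 13.06 ± 0.45 in control (SD, n = 5 each). The sign of small differences hung on how the arrays were scaled to each other. The 6 scalings compared were the 75th percentile over probes detected on all arrays, used for every value here unless another is named, the same percentile over all probes, the spike-in probes, quantile normalisation, normexp background correction and the authors' own log2 table. Over them the median difference of all genes tested ran from -0.28 to 0.99, that of the peroxins from -0.70 to 0.27 and that of the enzymes and transporters from -1.87 to -0.90. Over the same scalings 0 to 6 peroxins and 11 to 18 enzymes and transporters were called lower. The peroxins were dimmer, with a mean level in control rats of -2.78 to -2.40, against -0.13 to 0.52 for the enzymes and transporters. Whether brightness bears on the gap between the 2 sets was not tested. Of the 31 members, 19 were negative under each of the 6 scalings, 12 turned sign between them and 0 were positive under each. The 11 members called lower under each scaling were Acox2, Phyh, Hacl1, Amacr, Scp2, Crot, Hao2, Dao, Uox, Agxt and Cat, none of them a peroxin. Set against the median of all genes under the same scaling, 27 of the 31 members lay below it in each of the 6 and 0 lay above it in each. With spike-in scaling the peroxin median turned to 0.27, 11 members were called lower and 4 were called higher, which were Pex2, Pex3, Pex19 and Prdx5. Of all 6855 genes tested, that scaling called 395 lower and 4452 higher.

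**Figure D2:**
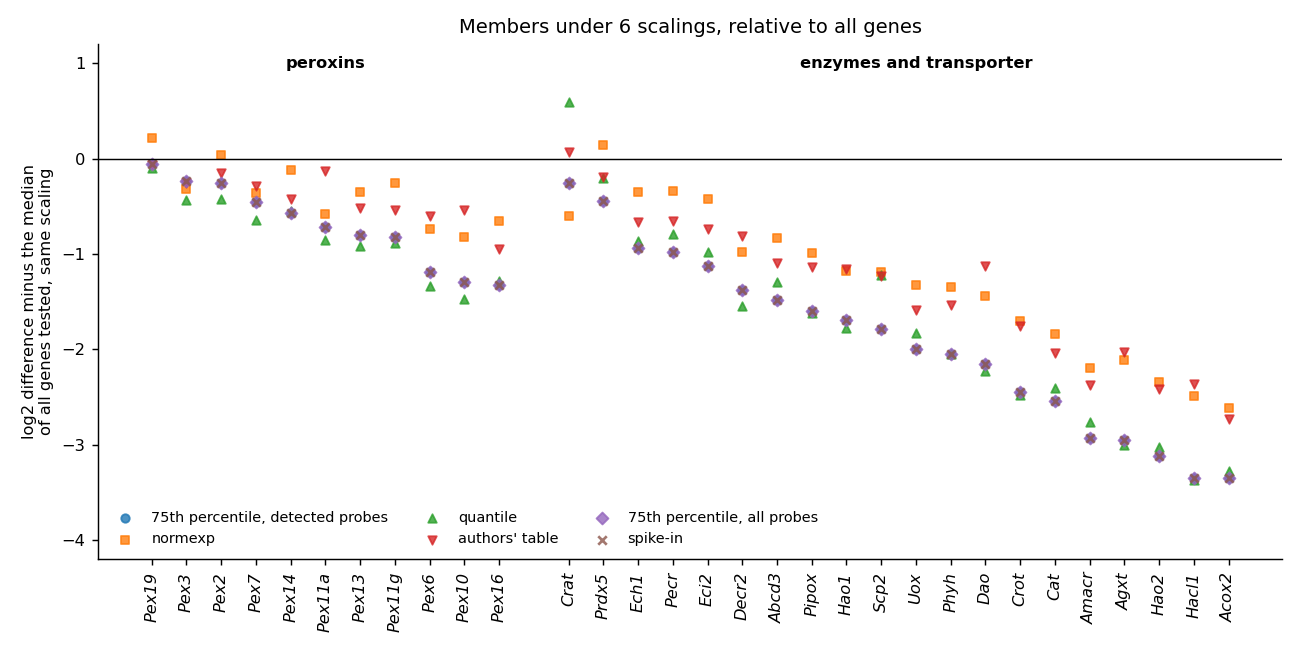
Log2 difference (DEN/TAA minus control) of each member tested minus the median of all genes tested, under 6 scalings, peroxins on the left and enzymes and the transporter Abcd3 on the right. Points of both percentile scalings and of spike-in scaling coincide, because these scalings shift every gene of an array alike. Most points lie below 0 whichever scaling is used, and those of the enzymes reach further down than those of the peroxins.

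Among the peroxins that insert membrane proteins, Pex16 was lower and Pex3 and Pex19 did not pass the test. Pex16 read -1.36, -1.61, -1.30, -1.55 and -1.40 in DEN/TAA rats 1 to 5, against -0.40, -0.54, -0.42, -0.52 and -0.35 in control rats 1 to 5. The groups lay far apart for their spread, and the difference was -0.999 (SE 0.13, adjusted p = 6.14e-05), or 2.00-fold lower. Its difference was -1.02, -1.01 and -0.97 within slides 1, 2 and 3. Pex19, the cytosolic carrier of membrane proteins, read -1.39, -1.48, -1.48, -1.83 and -2.05 in DEN/TAA and -2.38, -1.33, -1.53, -2.12 and -2.21 in control. The ranges overlapped, the difference was 0.27 (SE 0.23, adjusted p = 0.342), and its 4 probes gave 0.27, -0.17, 0.11 and -0.55. Pex3, the membrane anchor of Pex19, had a difference of 0.093 (SE 0.27, adjusted p = 0.788) and was well above background on 5 DEN/TAA and 3 control arrays.

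Of the import receptors, Pex5, which recognises the common C-terminal signal of matrix enzymes, was well above background on 0 arrays, so no level can be given. Pex7, the receptor for Phyh and a few other enzymes, read -3.71, -4.00, -3.87, -3.71 and -2.57 in DEN/TAA and -3.36, -3.40, -3.74, -2.56 and -4.14 in control, a difference of -0.13 (SE 0.33, adjusted p = 0.758). DEN/TAA replicate 5 stood above the other DEN/TAA rats, and the ranges overlapped. Neither docking protein passed the test under the scaling used here. Pex13 read -2.98, -2.54, -2.85, -2.42 and -2.46 in DEN/TAA and -2.42, -1.50, -2.23, -2.45 and -2.27 in control. Its difference of -0.47 (SE 0.21, adjusted p = 0.0695) missed the threshold, and passed it as lower with quantile normalisation (-0.74, adjusted p = 0.0114), normexp, the authors' table, the percentile over all probes and array weights. Pex14 had a difference of -0.25 (SE 0.19, adjusted p = 0.293), and passed as lower in the authors' table (-0.35, adjusted p = 0.0421).

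The receptor-recycling peroxins were split. Pex10, a RING subunit of the ubiquitin ligase, read -4.29, -4.49, -4.35, -4.81 and -4.07 in DEN/TAA and -3.30, -3.51, -3.71, -3.32 and -3.33 in control, without overlap. It was 1.95-fold lower, by -0.97 (SE 0.17, adjusted p = 0.000501). Its partner Pex2, another RING subunit, read -2.85, -2.99, -2.91, -2.79 and -2.98 in DEN/TAA and -3.00, -2.90, -2.73, -3.15 and -3.08 in control, a difference of 0.069 (SE 0.13, adjusted p = 0.686). These ranges lay almost on top of each other. Pex6, the ATPase, read -3.57, -3.93, -3.43, -4.09 and -3.29 in DEN/TAA and -2.68, -3.21, -3.25, -2.14 and -2.73 in control, 1.81-fold lower at -0.86 (SE 0.24, adjusted p = 0.00988). The DEN/TAA rat closest to control, replicate 5, missed the control range by a small margin. Pex26, which anchors Pex6, was well above background on 1 DEN/TAA and 0 control arrays and was not tested.

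Of the division peroxins, Pex11g read -2.05, -2.32, -1.83, -2.41 and -1.79 in DEN/TAA and -1.90, -1.46, -1.29, -1.93 and -1.33 in control, with overlap. It passed the threshold by a small margin, at -0.50 (SE 0.19, adjusted p = 0.0458) or 1.41-fold lower. The call ended without DEN/TAA replicate 1, 2 or 4 or control replicate 2, 3 or 5 (adjusted p = 0.0760 to 0.113) and with slide as a block (adjusted p = 0.0588). It also ended without the filter on dim probes (adjusted p = 0.0716) and without the 2 dimmest control arrays. Pex11a, which PPAR-alpha induces in rodent liver, had a difference of -0.39 (SE 0.30, adjusted p = 0.287) and was well above background on 5 DEN/TAA and 3 control arrays. It passed as lower with normexp (-0.86, adjusted p = 0.0162). With spike-in scaling none of the 4 peroxin calls was kept: Pex6, Pex10 and Pex16 stood at -0.20, -0.30 and -0.34, and Pex11g turned to 0.16.

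Most enzymes of peroxisomal fatty acid oxidation were lower. Of the 10 enzymes of this role 9 were tested and 8 were lower, with a median difference of -1.46, and Acox3, pristanoyl-CoA oxidase, was well above background on 0 DEN/TAA and 1 control arrays and was not tested. Abcd3, the transporter that brings long-chain and branched acyl groups and bile acid precursors into the peroxisome, read 0.26, 0.64, 0.98, 0.46 and 1.04 in DEN/TAA and 1.52, 1.74, 1.85, 2.01 and 2.02 in control. It was 2.23-fold lower without overlap, at -1.16 (SE 0.19, adjusted p = 0.000307), and did not pass with spike-in scaling (-0.49, adjusted p = 0.0890). Abcd2, a related transporter, was well above background on 0 arrays and was not tested.

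Acox2, the oxidase that opens the shortening of bile acid intermediates, had one of the 2 lowest differences of the list. It read -1.79, -1.54, -2.04, -1.32 and -1.40 in DEN/TAA and 1.60, 1.91, 1.51, 1.59 and 0.37 in control. Control replicate 5 stood below the other control rats and still lay above every DEN/TAA rat. The difference was -3.02 (SE 0.27, adjusted p = 5.07e-06), or 8.09-fold lower. Amacr, the racemase that turns branched acyl groups into the form such oxidases accept, read -0.64, -1.06, -1.12, -1.20 and 0.61 in DEN/TAA and 1.03, 1.70, 1.90, 2.04 and 2.91 in control. Its difference was -2.60 (SE 0.39, adjusted p = 0.000209), 6.05-fold lower without overlap, and its second probe gave -2.74. Scp2, whose longer product is the thiolase that ends this pathway and whose shorter product is a sterol carrier, read 3.31, 3.13, 3.34, 3.19 and 3.92 in DEN/TAA and 4.51, 4.71, 4.74, 5.00 and 5.20 in control. It was 2.74-fold lower at -1.46 (SE 0.19, adjusted p = 7.57e-05), and the probe does not tell these products apart as far as the files say.

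Both members of alpha-oxidation, which removes 1 carbon from phytanic acid and from 2-hydroxy acids, were lower. Phyh, the hydroxylase of the first step, read -2.02, -2.54, -2.13, -2.09 and -1.33 in DEN/TAA and -0.022, -0.66, -0.20, 0.38 and -0.99 in control, 3.30-fold lower at -1.72 (SE 0.28, adjusted p = 0.000342). Hacl1, the lyase that makes the cut, read -2.82, -3.47, -2.93, -3.58 and -2.04 in DEN/TAA and -1.12, -0.039, -0.11, 0.40 and 1.11 in control. It was 8.08-fold lower at -3.02 (SE 0.40, adjusted p = 7.32e-05), its control rats spread over more than 2 log2 units, and the groups did not overlap. The second probes of Phyh and Hacl1 gave -1.67 and -3.13. DEN/TAA replicate 5 was the highest DEN/TAA rat for Phyh, Hacl1, Amacr and Scp2, and it is the 1 DEN/TAA array on slide 3.

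The auxiliary enzymes Decr2, Eci2 and Ech1, which prepare unsaturated acyl chains for oxidation, had smaller differences. Decr2, a dienoyl-CoA reductase, read -3.67, -4.09, -3.76, -3.98 and -3.29 in DEN/TAA and -2.59, -2.17, -2.59, -2.44 and -3.76 in control, 2.07-fold lower at -1.05 (SE 0.28, adjusted p = 0.00769). Control replicate 5 lay inside the DEN/TAA range, and Decr2 was well above background on 4 of 5 control arrays. Eci2, an enoyl-CoA isomerase, read 0.13, 0.051, 0.29, -0.23 and 0.77 in DEN/TAA and 0.44, 1.17, 0.94, 1.29 and 1.16 in control, 1.74-fold lower at -0.80 (SE 0.22, adjusted p = 0.00888), with overlap. Ech1, a dienoyl-CoA isomerase, read -1.45, -1.24, -0.82, -0.85 and -0.83 in DEN/TAA and -0.24, -0.28, -0.57, -0.47 and -0.60 in control, 1.52-fold lower at -0.61 (SE 0.17, adjusted p = 0.00966). Its groups did not overlap, and its difference turned to 0.055 with spike-in scaling. Pecr, an enoyl-CoA reductase that is not one of these auxiliary enzymes, read 0.44, -0.40, 0.51, 0.15 and 1.13 in DEN/TAA and -0.041, 0.56, 1.38, 1.73 and 1.48 in control. Its difference of -0.65 (SE 0.36, adjusted p = 0.147) did not pass, and passed without control replicate 1 (-0.92, adjusted p = 0.0318).

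Of the enzymes that pass shortened acyl groups on, Crot was lower. Crot, carnitine octanoyltransferase, read -2.42, -2.70, -2.70, -2.82 and -2.44 in DEN/TAA and -1.29, -0.23, -0.51, -0.30 and -0.17 in control. The DEN/TAA rats were tightly grouped (SD 0.18, against 0.46 in control, n = 5 each), and Crot was 4.33-fold lower at -2.11 (SE 0.22, adjusted p = 1.24e-05). Crat, carnitine acetyltransferase, was well above background on 4 DEN/TAA and 1 control arrays, with a difference of 0.072 (SE 0.43, adjusted p = 0.899) that turned to -0.89 with normexp (adjusted p = 0.0423). Acot8, the acyl-CoA thioesterase, was well above background on 1 DEN/TAA and 0 control arrays and was not tested.

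Of the 6 genes that encode oxidases of amino acids, hydroxy acids and urate or the aminotransferase Agxt, 6 were lower, with a median difference of -1.74, and the groups did not overlap for 4 of them. Agxt, which turns glyoxylate into glycine and so limits oxalate, read -3.10, -3.54, -3.51, -3.38 and -2.34 in DEN/TAA and -0.12, -1.19, -0.81, 0.18 and -0.83 in control. It was 6.14-fold lower at -2.62 (SE 0.30, adjusted p = 3.04e-05), and its second probe gave -2.16. Hao1, which makes that glyoxylate from glycolate, read -2.31, -2.74, -2.84, -2.87 and -1.76 in DEN/TAA and -0.96, -1.32, -0.77, -0.37 and -2.25 in control, 2.58-fold lower at -1.37 (SE 0.34, adjusted p = 0.00497). DEN/TAA replicate 5 and control replicate 5 crossed over for Hao1. Uox, urate oxidase, the enzyme of the crystalline core of rat peroxisomes, read -0.13, -0.40, -0.30, -0.26 and 0.51 in DEN/TAA and 1.52, 1.65, 1.49, 2.02 and 1.06 in control. It was 3.17-fold lower without overlap, at -1.66 (SE 0.22, adjusted p = 7.55e-05).

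Pipox, which oxidises sarcosine and pipecolate, read -2.24, -2.72, -1.68, -2.49 and -1.65 in DEN/TAA and -0.52, -0.70, -1.32, -0.62 and -1.29 in control, 2.40-fold lower at -1.27 (SE 0.25, adjusted p = 0.00144). The remaining 2 oxidases varied most between rats. Hao2, which oxidises longer hydroxy acids, read -1.06, -1.15, -2.03, -3.63 and -0.24 in DEN/TAA and -0.38, 0.56, 1.94, 1.77 and 1.93 in control. Its SD was 1.29 in DEN/TAA and 1.04 in control (n = 5 each), its groups overlapped, and it was 6.90-fold lower at -2.79 (SE 0.63, adjusted p = 0.00283). Within slides 1, 2 and 3 the Hao2 difference was -1.20, -4.77 and -2.09, and without DEN/TAA replicate 4 it was -2.28. Dao, D-amino acid oxidase, read -2.80, -3.41, -3.79, -4.47 and -5.74 in DEN/TAA and -2.52, -2.59, -2.16, -1.49 and -2.32 in control. The DEN/TAA rats spread widely (SD 1.12, against 0.44 in control, n = 5 each), the groups lay side by side without overlap, and Dao was 3.54-fold lower at -1.82 (SE 0.46, adjusted p = 0.00591). DEN/TAA replicate 5, the highest DEN/TAA rat for Hao1, Hao2, Pipox, Uox and Agxt, was the lowest for Dao, and the Dao difference within slides 1, 2 and 3 was -0.55, -1.97 and -3.83.

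**Figure D3:**
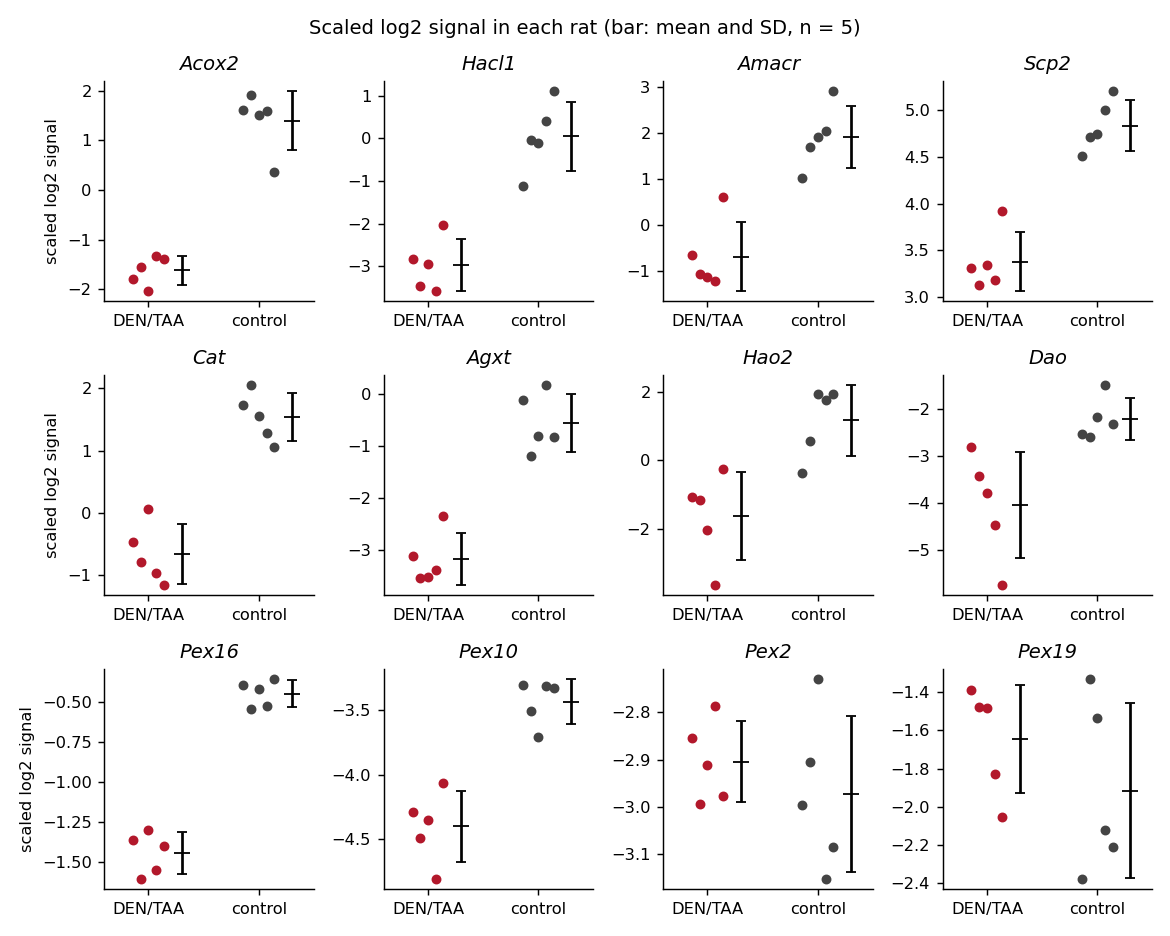
Scaled log2 signal of 12 members in each rat, DEN/TAA left and control right in every panel, with points in replicate order, the mean and the SD (n = 5), and a scale of its own in each panel. Acox2, Hacl1, Amacr, Scp2, Cat, Agxt, Dao, Pex16 and Pex10 do not overlap between the groups, Hao2 overlaps with a wide spread, and Pex2 and Pex19 share their range.

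Peroxide removal differed between its 2 members. Cat, catalase, which breaks down hydrogen peroxide, read -0.47, -0.79, 0.063, -0.98 and -1.17 in DEN/TAA and 1.73, 2.06, 1.56, 1.28 and 1.06 in control. Every DEN/TAA rat lay below every control rat, and Cat was 4.62-fold lower at -2.21 (SE 0.26, adjusted p = 3.25e-05), with -2.53, -2.02 and -2.34 within slides 1, 2 and 3. Prdx5, a peroxiredoxin that is also found in mitochondria and the cytosol, read 1.63, 1.77, 1.44, 1.77 and 1.42 in DEN/TAA and 1.74, 1.55, 1.70, 1.71 and 1.91 in control. Its difference was -0.11 (SE 0.14, adjusted p = 0.515), and its direction hung on the scaling: it passed as lower with the percentile over all probes (-0.42, adjusted p = 0.0340) and as higher with spike-in scaling (0.55, adjusted p = 0.0394).

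The promoters of the members are shown for what they hold in common and where they differ, since several members moved together. RefSeq promoters of build GRCr8, 250 bases before to 50 bases after the gene start, were matched for 33 of the 36 members, in 34 entries because Agxt has 2. The first feature searched was the element that PPAR-alpha binds with its partner RXR, which is 2 copies of AGGTCA in direct repeat with 1 base between them, on both strands and with at most 2 mismatches over the 12 fixed letters. It was found in 4 of the 34 entries (11.8%), all of them enzymes, and in 0 of the 11 peroxin entries. Over all 33469 RefSeq promoters 3.77% held it, and over the 5956 promoters of genes tested 3.02%. The matching stretches are printed for all 4 genes, read on the gene's strand, with the element in capitals and 20 bases on each side.
Acot8 (chr3:173962139-173962438, minus strand, element starting at -22 with 1 mismatch): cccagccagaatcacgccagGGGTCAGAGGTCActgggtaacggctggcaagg
Amacr (chr2:61673085-61673384, plus strand, element starting at -208 with 2 mismatches): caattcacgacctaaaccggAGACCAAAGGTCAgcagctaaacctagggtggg
Cat (chr3:110329477-110329776, minus strand, element starting at -169 with 2 mismatches): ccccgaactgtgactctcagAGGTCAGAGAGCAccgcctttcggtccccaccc
Crat (chr3:34087050-34087349, minus strand, element starting at -223 with 2 mismatches): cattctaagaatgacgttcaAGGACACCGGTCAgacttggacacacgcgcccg
The coordinates are those of the whole promoter window, and positions count from the gene start. Of these 4 genes Amacr and Cat were lower in DEN/TAA, Crat did not pass the threshold and Acot8 was not tested. A match describes the letters of this window and does not show a binding site.

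The second feature was the number of CpG dinucleotides, the sites of DNA methylation in mammals. The 6 genes of the oxidase and Agxt group had the lowest counts, 2 to 6 CpG in their 7 entries, while the other 27 member entries held 9 to 50 and the 11 peroxin entries 10 to 27. The median was 16 for the members, 20 for the genes tested and 7 for all promoters of the table. At most 6 CpG were found in 20.6% of the member entries, 14.6% of the promoters of genes tested and 48.6% of all promoters, the limit of 6 having been chosen after the counts were seen. Low counts did not mark the lower members as a whole, since Acox2, Hacl1 and Amacr, with 13, 25 and 21 CpG, had differences of -3.02, -3.02 and -2.60. The promoters of Agxt and Uox, with few CpG, and of Pex16, with 18, are printed on the gene's strand with each CpG in capitals.
Agxt (chr9:101122543-101122842, plus strand, 2 CpG): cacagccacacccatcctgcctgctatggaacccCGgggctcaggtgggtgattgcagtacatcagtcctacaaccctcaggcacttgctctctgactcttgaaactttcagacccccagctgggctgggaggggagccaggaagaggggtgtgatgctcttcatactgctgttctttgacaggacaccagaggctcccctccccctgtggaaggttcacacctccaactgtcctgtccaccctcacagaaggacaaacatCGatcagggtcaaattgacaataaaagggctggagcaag
Uox (chr2:238146880-238147179, plus strand, 6 CpG): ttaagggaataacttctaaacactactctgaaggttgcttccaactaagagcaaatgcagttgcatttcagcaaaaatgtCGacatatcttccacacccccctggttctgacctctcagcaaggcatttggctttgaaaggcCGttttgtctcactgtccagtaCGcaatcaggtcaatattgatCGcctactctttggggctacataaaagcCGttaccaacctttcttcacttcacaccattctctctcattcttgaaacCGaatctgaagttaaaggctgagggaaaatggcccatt
Pex16 (chr3:98802495-98802794, plus strand, 18 CpG): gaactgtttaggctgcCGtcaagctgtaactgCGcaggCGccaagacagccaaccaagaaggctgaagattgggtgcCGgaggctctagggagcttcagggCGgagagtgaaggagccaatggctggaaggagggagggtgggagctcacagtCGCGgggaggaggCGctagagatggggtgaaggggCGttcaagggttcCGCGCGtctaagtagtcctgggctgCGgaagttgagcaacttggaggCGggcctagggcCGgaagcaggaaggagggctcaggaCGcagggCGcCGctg
In Pex16 the capitals are spread over the whole window, while in Uox they are few and in Agxt they stand near both ends. The arrays hold no measure of DNA methylation or of factor binding.

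**Figure D4:**
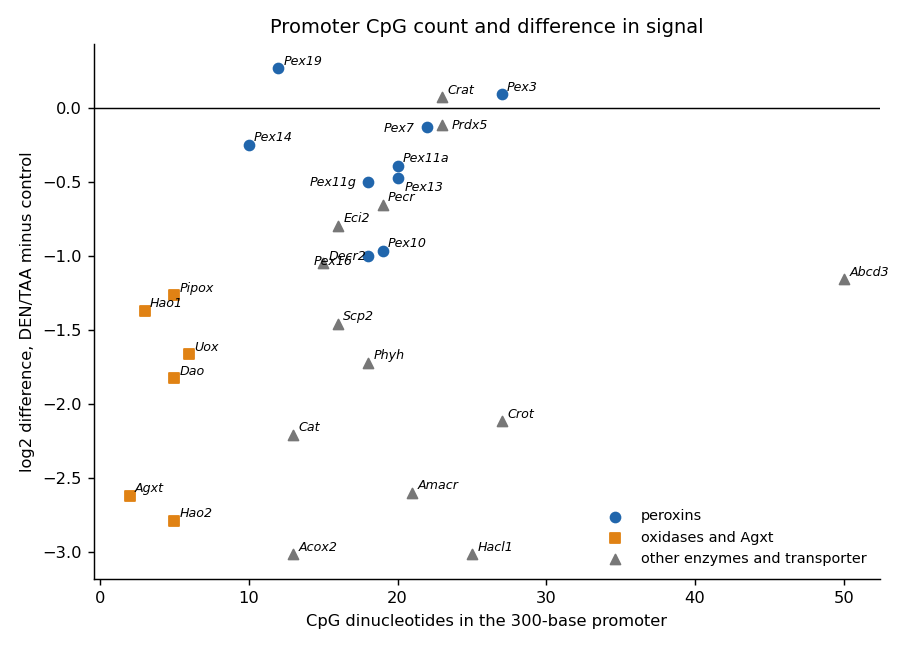
CpG count of the promoter of each tested member with a promoter entry (none for Pex2, Pex6 and Ech1, and for Agxt its entry with 2 CpG) against its log2 difference (DEN/TAA minus control). The oxidases and Agxt sit at 6 CpG or fewer and below 0, and the other lower enzymes shown are spread from 13 to 27 CpG, with the transporter Abcd3 at 50.

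Other genes of peroxisomal fatty acid oxidation outside the list moved in both directions. Of 13 tested 7 were lower and 2 higher, with a median difference of -0.54 (-0.85 to 0.12 over the scalings), and with spike-in scaling 3 were lower and 4 higher. Acsl1, which activates long-chain fatty acids, Ehhadh, the bifunctional enzyme of the straight-chain pathway, and Acaa1a, its thiolase, had differences of -2.54, -2.33 and -1.58 (adjusted p = 2.18e-05, 3.02e-05 and 3.49e-05). Hsd17b4, the bifunctional enzyme that follows Acox2, had -1.02 (SE 0.23, adjusted p = 0.00287). Acaa1b, a near copy of Acaa1a, was higher, with 1.77 (SE 0.36, adjusted p = 0.00164) and no overlap, under each of the 6 scalings, so the 2 probes did not read the same signal. How far each tells the copies apart was not examined. Hsdl2 was higher at 0.69 (SE 0.25, adjusted p = 0.0365), and turned to -0.23 with normexp.

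Of 10 other peroxisomal matrix enzymes 5 were lower and 0 higher, with 0 higher also at an unadjusted p under 0.05 in limma, and a median of -0.74 (-1.05 to -0.081 over the scalings). They included Pmvk, phosphomevalonate kinase, at -1.83 (adjusted p = 6.15e-05), Tysnd1, the protease that trims imported enzymes, at -1.67 (adjusted p = 0.000114), and Gstk1, a glutathione transferase, at -1.11 (adjusted p = 0.000987). Of 13 PPAR-alpha targets that act outside the peroxisome 8 were lower and 1 higher, with a median of -1.82 (-2.13 to -0.90). Fabp1, the liver fatty acid binding protein, and Cyp4a8, a fatty acid hydroxylase with close relatives on the array, had -2.10 and -2.64 (adjusted p = 4.93e-05 and 9.50e-05). Vnn1, pantetheinase, was higher at 1.66 (adjusted p = 0.00135) and was well above background on 1 of 5 control arrays. Ppara itself was near the detection limit, well above background on 4 DEN/TAA and 1 control arrays, with a difference of -0.41 (SE 0.24, adjusted p = 0.176) that turned to 0.26 with spike-in scaling. Nr1h4, the bile acid receptor FXR, was lower at -1.17 (SE 0.20, adjusted p = 0.000491).

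Genes of fatty acid oxidation in mitochondria were lower or did not pass the test. Of 15 genes tested 8 were lower and 0 higher, with 0 higher also at an unadjusted p under 0.05 in limma, and the median was -0.67 (-0.98 to -0.0064). With spike-in scaling 5 were higher and 4 lower. Etfb and Etfdh, which pass electrons from fatty acid oxidation to the respiratory chain, had -1.40 and -1.38 (adjusted p = 3.14e-05 and 0.000207), and Acadvl, the very long-chain dehydrogenase, had -1.24 (adjusted p = 0.000120).

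The cell type markers moved in the same rats. The tissue carried hepatocyte markers on every array, and 8 of 9 were lower in DEN/TAA (3 to 8 over the scalings), with a median of -0.99, including Apoa2 at -2.63 and Ttr at -2.03. Apoa1, named after its value was seen, did not pass at 0.28 (adjusted p = 0.287) and was called higher under 3 of the 6 scalings. Over the scalings 0 to 2 hepatocyte markers were called higher. The mean level of the 9 hepatocyte markers was 2.39 to 2.50 in DEN/TAA and 3.45 to 3.81 in control. Markers of other cells were higher: 4 of 4 biliary, 6 of 7 stellate cell and myofibroblast, 6 of 6 macrophage, 2 of 2 endothelial and 1 of 2 lymphocyte markers tested, where 39.2% of all genes tested were higher. Of these, 3 biliary, 1 macrophage and 1 lymphocyte marker were well above background on no control array. They were tested through DEN/TAA arrays alone, so a higher reading was nearly fixed beforehand and their calls carry no weight. Over the scalings 2 to 4 biliary, 4 to 7 stellate cell, 5 to 6 macrophage, 0 to 2 endothelial and 0 to 2 lymphocyte markers were called higher, and the lymphocyte median turned to -0.39 with normexp. Mean levels were -3.14 to -2.14 in DEN/TAA and -6.14 to -5.13 in control for the biliary markers and -1.87 to -1.21 in DEN/TAA and -3.96 to -3.46 in control for the stellate cell markers. They were -0.36 to 0.41 in DEN/TAA and -2.85 to -1.65 in control for the macrophage markers. They were -3.08 to -2.61 in DEN/TAA and -4.44 to -4.07 in control for the endothelial markers, and -4.35 to -3.87 in DEN/TAA and -6.05 to -4.55 in control for the lymphocyte markers. The biliary, macrophage and lymphocyte means include the markers that were well above background on no control array. The gap between the groups in these 3 means was thus partly fixed beforehand, and its size is not a measure of the change. Krt19, a bile duct keratin, was at least 9.93-fold higher, Trem2, a receptor of macrophages, at least 5.33-fold higher and Cd3g at least 1.43-fold higher. None of them was well above background on any control array, so these folds carry no weight for the direction. The same holds for Cldn4 and Spp1, which are named after their values were seen. The stellate cell and myofibroblast markers tested (median 1.82) and the endothelial ones (median 1.33) held 0 such genes. Cd3g turned to -0.28 with normexp. In bulk liver, fewer hepatocytes and less of an mRNA per hepatocyte cannot be told apart, and the part of cell makeup in the differences of the peroxisomal genes was not tested.

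As a mean over tested genes in each rat, relative to the control mean, the 20 enzymes and transporters stood at -1.89 to -1.17 in DEN/TAA and -0.27 to 0.38 in control. The 11 peroxins stood at -0.60 to -0.073 in DEN/TAA and -0.22 to 0.16 in control, and the hepatocyte markers at -1.24 to -1.13 in DEN/TAA and -0.17 to 0.19 in control. The order of peroxins and hepatocyte markers hung on the scaling: with quantile normalisation the median difference was -0.67 for the peroxins and -0.23 for the hepatocyte markers, and in the authors' table it was -0.35 for the peroxins and -0.37 for the hepatocyte markers. The enzymes and the hepatocyte markers did not overlap between the groups of rats, and the peroxins did. DEN/TAA replicate 5 had the highest value of the DEN/TAA rats in both peroxisomal sets, -1.17 against at most -1.51 in the other DEN/TAA rats for the enzymes and -0.073 against at most -0.35 for the peroxins. Within slides 1, 2 and 3 the mean difference was -1.49, -1.76 and -1.34 for the enzymes and -0.39, -0.42 and -0.16 for the peroxins.

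**Figure D5:**
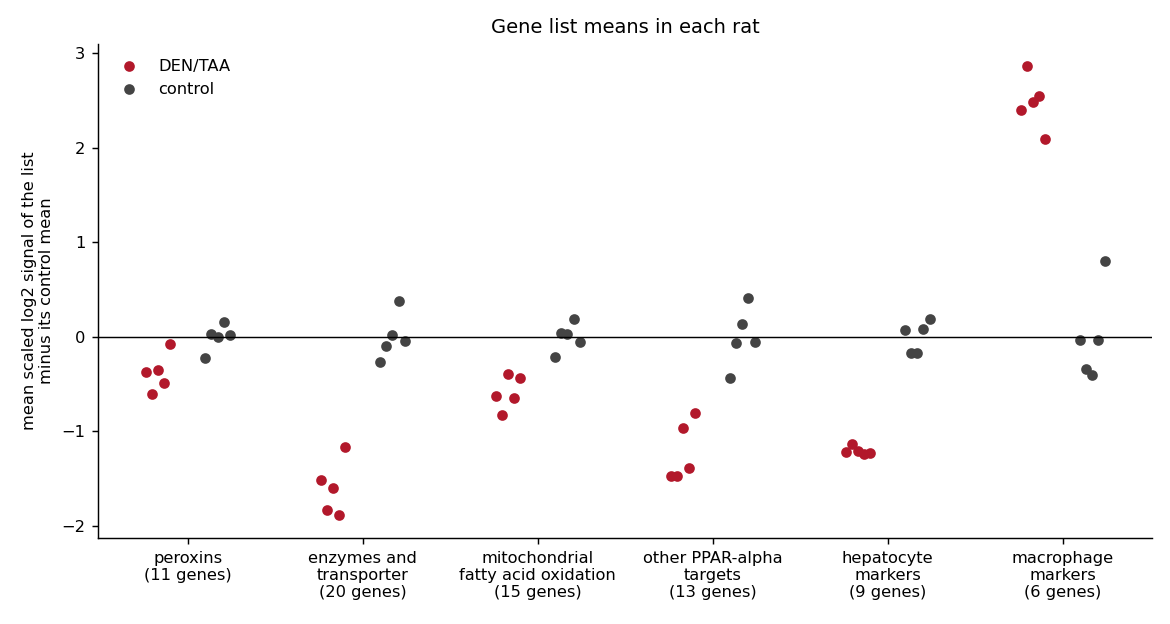
Mean scaled log2 signal of 6 gene lists in each rat minus the list's control mean, DEN/TAA left and control right within each list, with the number of genes under each name. The enzymes, hepatocyte markers, PPAR-alpha targets and mitochondrial genes lie below control in every DEN/TAA rat, the macrophage markers above, and the peroxins overlap with control. The macrophage mean includes Trem2, which was well above background on no control array.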

How the data were processed

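Liver RNA of 10 rats, 5 DEN/TAA and 5 control, was measured on 1-colour Agilent 4x44K rat arrays from 150 ng of total RNA, 1 array per rat. The deposited scanner files hold spot intensity from which the array's own background had been subtracted, per the file headers. The headers name Agilent Feature Extraction 11.5.1.1 and the submitters' processing notes name 15.5. A second deposited table holds the authors' log2 values, whose ranks matched the raw median spot signal of the same array and whose column medians lay between 8.592 and 8.594. The sources used here do not give how the authors made it, and it served as an alternative.

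Control spots were left out, and so were outlier-flagged spots, unless every spot of a probe was flagged on an array. Such a probe kept its flagged signal and counted as not above background there. Each array's log2 signals were reduced by its 75th percentile over the 6229 probes well above background on all 10 arrays. At most 46.6% of spots were above background on an array, and none was saturated. Probe names came from matching RefSeq accessions to the GRCr8 gene table: of 41012 probes, 17502 had 1 symbol, 0 several and 23510 none here. A probe was kept when well above background on at least 5 arrays, and a gene was represented by its kept probe with the highest mean. Groups were compared with limma 3.58.1 (R 4.3.3), by two-sided moderated tests from lmFit and eBayes with Benjamini-Hochberg adjustment over 6855 genes and a threshold of 0.05, on 10 arrays without covariates. The procedure was tested on simulated data with known changes. The number of arrays limits the precision, and p-values measure the spread between these rats. "At least N-fold" is used where no array of the dimmer group was well above background: there each array's signal was raised to that of its dimmest well-detected probe before the means were compared. Such a gene was tested through the brighter group's arrays alone, so its call carries no weight for the direction. Slide 1 held DEN/TAA and control replicates 1 and 2, slide 2 held DEN/TAA replicates 3 and 4 and control replicate 3, and slide 3 held DEN/TAA replicate 5 and control replicates 4 and 5.

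The members and all gene lists were chosen with earlier results of these data known, so lists are described by counts and medians beside those of all genes tested, with no test over a list. Named were all members, up to 3 genes past the threshold per direction in each other list (2 in marker lists), and Ehhadh, Hsd17b4 and Ppara whatever their result. Some results under this rule are not reported here. The 24 alternatives covered background correction (normexp, offset 50), scaling, filters, several probes per gene, slide and replicate blocks, the variance prior, array weights and leaving out arrays. Replicate numbers did not pair the rats: correlations of same-numbered rats' deviations were 0.087, 0.097, 0.20, -0.21 and 0.11. Promoters were taken from RefSeq, and figures were drawn with matplotlib 3.10.9. A planned description of the proteins' C-terminal signals was not made, since no protein table was used here.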

Additional observations from a re-analysis of the deposited data

Results flagged for a closer look

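Within 62 groups of 5 rats (31 members, DEN/TAA and control), 5 groups held 1 rat that stood apart from the other 4 by Dixon's criterion, and chance flags about 1 in 20 groups. For Scp2, DEN/TAA replicate 5 read 3.92, where the other DEN/TAA rats read 3.13 to 3.34. For Pex7 the same rat read -2.57, where the others read -4.00 to -3.71, and without it the Pex7 difference was -0.38. For Acox2, control replicate 5 read 0.37, where the other control rats read 1.51 to 1.91, and for Decr2 the same rat read -3.76, where the others read -2.59 to -2.17. For Pex13, control replicate 2 read -1.50, where the others read -2.45 to -2.23, and without it the Pex13 difference was -0.31. DEN/TAA replicate 5 is the 1 DEN/TAA array on slide 3, and control replicate 5 had the lowest share of spots above background, 16.5%. Neither was tested as a cause.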

How the results depend on the processing

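Over 24 alternatives 739 member values were recomputed, of which 706 kept direction and side of the threshold, 17 lost and 12 gained a call, and 4 reversed: Crat at -0.89 with normexp, and Pex11g at 0.16, Ech1 at 0.055 and Prdx5 at 0.55 with spike-in scaling. Genes higher and lower numbered 2687 and 1115 here. Spike-in scaling gave 4452 and 395, the authors' values 2035 and 1315, quantile normalisation 1941 and 1353, the all-probe percentile 1612 and 1597, and normexp 881 and 1948. Without a filter there were 2590 and 5798, and with detection required on all 10 arrays 1154 and 944. The peroxin median was -0.63 with normexp, -0.67 with quantile normalisation, -0.70 with the all-probe percentile and 0.27 with spike-in scaling. The median of the enzymes and transporters was -1.11 in the authors' table and -0.90 with spike-in scaling, where 4 members were higher and 11 lower. Spike-in scaling put the median of all genes at 0.99, quantile normalisation at 0.18, the authors' table at 0.082, the all-probe percentile at 0.021, normexp at -0.28, no filter at -0.50 and detection on all 10 arrays at 0.10. Leaving out each rat gave 2343 to 2688 genes higher, 989 to 1143 lower, 20 to 22 members lower, and medians of -0.54 to -0.20 for the peroxins and -1.72 to -1.48 for the enzymes. Without the 2 dimmest control arrays 20 members were lower. With the replicate block 21 members were lower and 0 higher, with medians of -0.39 and -1.56, and 2683 genes were higher and 1117 lower; 1 of 5 rats correlated best with its own number. Members near background (Pex3, Pex7, Pex11a, Crat, Decr2) are limited by signal, and the causes of these shifts were not tested.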

Other observations

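Genes of peroxisome division, membrane and contact sites, and of plasmalogen synthesis, were described without a test over the list, as lists chosen with earlier results known. Of 12 division, membrane and contact genes tested 3 were higher and 3 lower, with a median of 0.09 (-0.75 to 0.76 over the scalings). The higher ones included Mff, the membrane receptor for the fission GTPase, at 0.94 (SE 0.21, adjusted p = 0.00257), and that GTPase, Dnm1l, at 1.75 (SE 0.47, adjusted p = 0.00775), which was well above background on 3 of 5 control arrays. Both act on mitochondria as well, and neither turned sign over the 6 scalings. Trim37, a ubiquitin ligase, was at least 1.35-fold higher, with no control array above background, and turned to -0.41 with normexp. It was tested through DEN/TAA arrays alone. The lower ones were Pxmp2, a channel protein of the peroxisomal membrane, at -1.70 (SE 0.20, adjusted p = 3.54e-05), Mtarc2, an amidoxime reductase, at -1.26 (SE 0.16, adjusted p = 5.15e-05), and Tmem135 at -0.73 (SE 0.21, adjusted p = 0.0121), which was well above background on 2 of 5 control arrays. Pxmp2 was called lower under each of the 6 scalings, Mtarc2 under 5, and Tmem135 under 3, standing at -0.066 with spike-in scaling. Of 2 plasmalogen genes tested 1, Agps, the peroxisomal synthase that forms the ether bond, was called higher. It was not well above background on any control array and turned to -0.73 with normexp, so no fold is given. Like Trim37, it was tested through DEN/TAA arrays alone.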
